A study of Canis lupus familiaris with 25 samples.

Results

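Cadherins and epithelial-mesenchymal regulators were compared between benign and malignant perianal tumors of dogs. The 10 genes were chosen by function: CDH1, CDH2, CDH3, EPCAM, VIM, ZEB1, ZEB2, SNAI1, SNAI2 and TWIST1. Of these, 9 matched among 24532 genes, while TWIST1 was not matched by symbol or gene ID and was not analysed here. The 25 QuantSeq 3′ libraries came from FFPE archival tissue: 10 hepatoid gland adenomas (HGA), 11 primary apocrine gland anal sac adenocarcinomas (AGASAC) and 4 sublumbal lymph node metastases of dogs 1 to 4, whose primary tumors were also sequenced. Dogs with HGA were 8 to 14 years old (median 12; 2 female, 3 neutered female, 4 male, 1 neutered male). Dogs with AGASAC were 8 to 12.5 years old (median 10; 2 female, 3 neutered female, 6 neutered male), and the 4 with a metastasis were 8 to 10 (median 9; 1 female, 1 neutered female, 2 neutered male). Intact males (4 of 10) were in the HGA group alone; effects of sex were not tested.

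Total counts ran from 1562347 to 6389555 (median 2506085) in HGA, from 2581453 to 4218340 (median 2950459) in primary AGASAC and from 2857541 to 3289546 (median 3102626) in metastases. The floor, 3 counts, is the upper limit behind an observed 0; it equals 0.543 to 1.84 CPM after TMM scaling depending on the library and covers counting error only.

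CDH1 joins neighboring epithelial cells at adherens junctions, while CDH2 and CDH3 are its relatives in mesenchymal or neural cells and in basal epithelium. ZEB1, ZEB2, SNAI1, SNAI2 and TWIST1 encode transcription factors that can repress CDH1 and other epithelial genes in epithelial-mesenchymal transition (EMT). VIM, the ZEB genes and SNAI2 are also expressed by stromal cells, and SNAI2 by basal cells of stratified epithelium.

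For HGA versus AGASAC (primary tumors), 2 of the 6 tested members were called by the edgeR quasi-likelihood test, SNAI2 up and EPCAM down in HGA. Among all 12070 tested genes, 25.1% were called, 12.6% up and 12.5% down, and 9.13%, called or not, had no overlap between the groups, as SNAI2 and EPCAM had none. For HGA versus metastasis the same 2 of 6 members were called in the same directions, beside 16.1% of 13195 genes (8.40% up, 7.69% down, and 16.1% without overlap, called or not). For metastasis versus primary AGASAC of the same dogs, edgeR called 0 of 6 members and 0% of 12629 genes. At an unadjusted p below 0.05 this comparison, fitted without pairing, held 145 genes, and DESeq2 called 5 genes, none of them a member. With the dog as a block it held 491 genes at that p and 1 call, again not a member. Both numbers of genes lie below the share of 0.05 that chance alone gives at that p. HGA versus AGASAC and HGA versus metastasis share the HGA samples, and the primary tumors of dogs 1 to 4 enter both comparisons that hold primary AGASAC, so the comparisons are not independent.

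**Figure D1:**
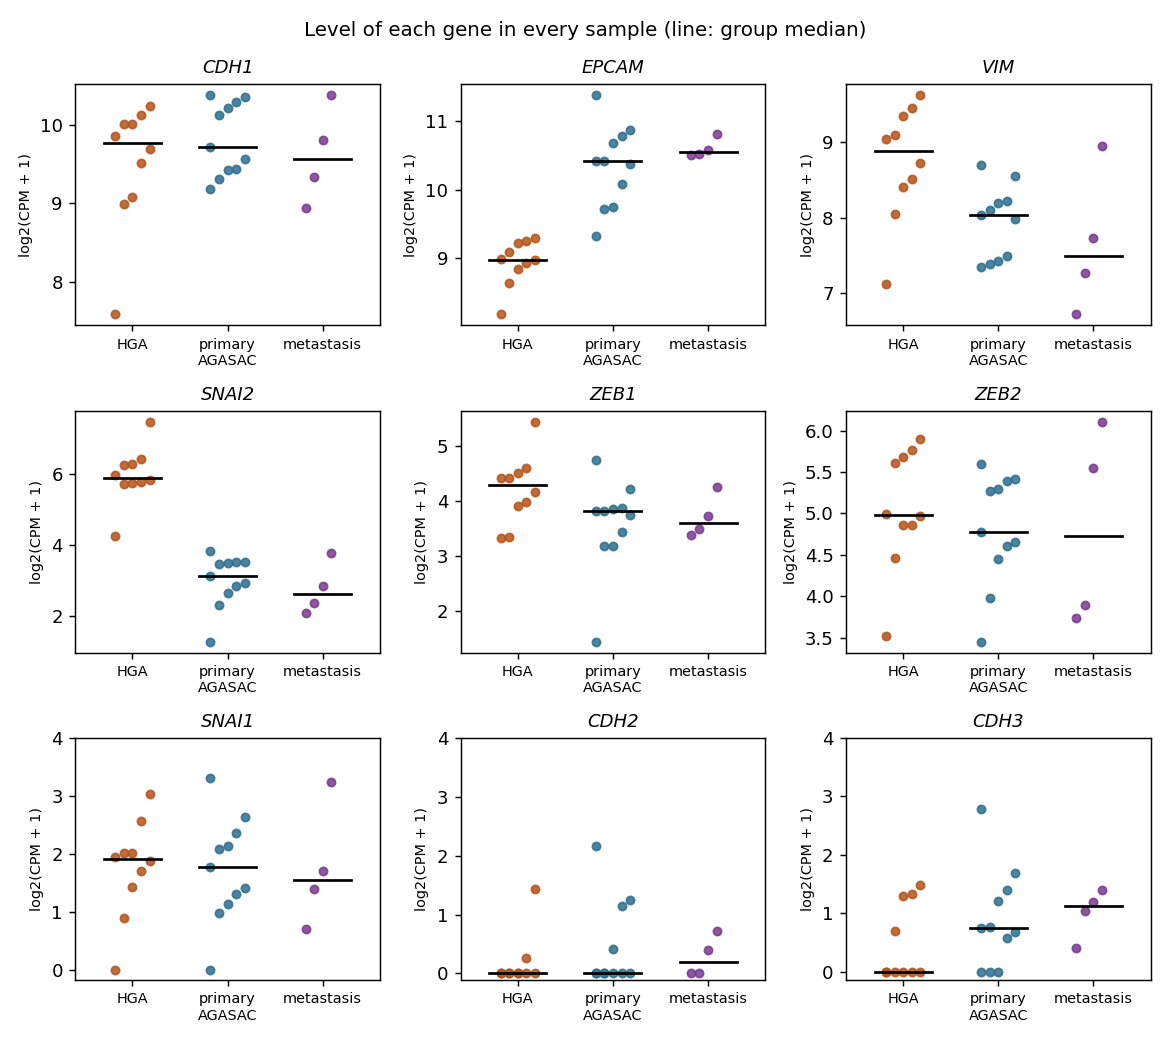
Level of 9 members as log2(CPM + 1) in 10 HGA, 11 primary AGASAC and 4 metastases. Each point is 1 sample and each line a group median. CDH2, CDH3 and SNAI1 did not pass the count filter in any of the 3 comparisons.

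EPCAM, the epithelial adhesion molecule, ranged from 289 to 629 CPM in HGA (median 504) and from 641 to 2688 CPM in primary AGASAC (median 1367). Every HGA lay below every AGASAC sample, primary or metastatic. EPCAM was 2.75-fold lower in HGA than in primary AGASAC (log2FC −1.46, SE 0.22, edgeR quasi-likelihood, Benjamini-Yekutieli adjusted p = 9.32e-05). In metastases 1 to 4, EPCAM reached 1452, 1466, 1526 and 1810.5 CPM. HGA were 3.06-fold lower than metastases (log2FC −1.61, SE 0.21, edgeR quasi-likelihood, Benjamini-Yekutieli adjusted p = 2.79e-04). Leaving out each sample in turn gave EPCAM log2FC values of −1.54 to −1.33 against primary tumors and −1.67 to −1.53 against metastases. Its fold stayed near this size with the RNA extraction batch as a term (−1.55), and within batches 5, 6 and 8, which hold at most 3 samples per group, it was −1.15, −1.58 and −1.64, not called in any of them.

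CDH1, the main epithelial cadherin, ranged from 192 to 1199.6 CPM in HGA (median 874) and from 579 to 1328 CPM in primary AGASAC (median 838). Metastases 1 to 4 held 643, 491, 894 and 1331 CPM. The groups overlapped, with 3 of 10 HGA below all primary tumors and HGA 10 the lowest of all samples. CDH1 log2FC was −0.20 (SE 0.25) for HGA versus AGASAC and −0.04 (SE 0.38) for HGA versus metastasis, and neither was called (edgeR quasi-likelihood, Benjamini-Yekutieli adjusted p = 1 in both). A p that misses the threshold does not show equal levels. CDH1 changed sign within extraction batch 6 (0.16) and within sequencing naming series A (0.27).

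CDH2, the neural cadherin, had at most 3 counts in any HGA, with 8 of 10 at 0, and at most 2 counts in any metastasis. In primary AGASAC, 7 of 11 samples had 0 counts of CDH2 and 3 were above 3 counts, up to 10. CDH3, the placental cadherin of basal epithelium, had at most 8 counts in HGA (6 of 10 at 0), 17 in primary AGASAC (3 of 11 at 0) and 5 in metastases. Neither cadherin passed the count filter in any comparison. Neither was called for HGA versus AGASAC by DESeq2 or by edgeR without the filter, and at this depth no difference in CDH2 or CDH3 was detectable.

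VIM, the mesenchymal intermediate filament, ranged from 138 to 789 CPM in HGA (median 474) and from 161 to 414 CPM in primary AGASAC (median 260.3). The groups overlapped: 6 of 10 HGA lay above all primary tumors, and HGA 9 lay below all of them. HGA 9 also had the highest DV200 (a measure of the share of longer RNA fragments) of all samples. Its DV200 was 92.7%, against 70.5 to 82.4% in the other HGA, and effects of RNA quality were not tested. VIM log2FC was 0.90 (SE 0.25; edgeR quasi-likelihood, Benjamini-Yekutieli adjusted p = 0.0535), and VIM was not called. Without HGA 9, VIM was called at log2FC 1.01 (edgeR quasi-likelihood, Benjamini-Yekutieli adjusted p = 0.00797; 0.00797 to 0.115 over the 21 fits that each left out 1 sample). With the extraction batch as a term VIM log2FC was 0.68, and under library-size scaling it was 0.59. Within batches 5, 6 and 8 it was 0.44, 0.25 and 1.04, and VIM was called in none of these fits. Metastases 1 to 4 held 104, 494, 153 and 211 CPM of VIM, and 5 of 10 HGA exceeded all of them. VIM log2FC for HGA versus metastasis was 1.00 (SE 0.45), not called (edgeR quasi-likelihood, Benjamini-Yekutieli adjusted p = 1). Without metastasis 2 this VIM log2FC was 1.62, and without metastasis 1 it was 0.74, the highest and lowest of the 14 fits that left out 1 sample, none of them called.

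SNAI2, the zinc finger repressor also known as Slug, ranged from 18.2 to 179 CPM in HGA (median 59.1) and from 1.40 to 13.1 CPM in primary AGASAC (median 7.71). Metastases 1 to 4 held 3.24, 12.7, 6.11 and 4.15 CPM, so that every HGA lay above all 15 AGASAC samples. SNAI2 was 9.31-fold higher in HGA than in primary AGASAC (log2FC 3.22, SE 0.34, edgeR quasi-likelihood, Benjamini-Yekutieli adjusted p = 4.81e-07). Against metastases it was 10.9-fold higher (log2FC 3.45, SE 0.55, edgeR quasi-likelihood, Benjamini-Yekutieli adjusted p = 0.00173). HGA 10 had the highest SNAI2, and without it the log2FC against primary tumors was 2.96, the lowest of the 21 fits that left out 1 sample (2.96 to 3.34). With the extraction batch as a term SNAI2 log2FC was 2.93, and within batches 5, 6 and 8 it was 3.39, 2.59 and 3.00, called in batch 6 alone. Within naming series A (9 HGA, 3 primary AGASAC) SNAI2 log2FC was 3.33 and EPCAM log2FC −1.52, both called.

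SNAI1, the Snail repressor, had medians of 6.5 counts in HGA, 7 in primary AGASAC and 6 in metastases, and did not pass the count filter. Without the filter its log2FC for HGA versus AGASAC was −0.0922 (SE 0.62) and by DESeq2 −0.0665 (SE 0.56), neither called. In CPM, SNAI1 ran from 0 to 7.23 in HGA and from 0 to 8.96 in primary AGASAC, and metastasis 2 held 8.49 against 0.639 to 2.25 in the other metastases. These SNAI1 ranges overlapped.

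ZEB1, a zinc finger homeobox repressor, ranged from 9.03 to 42.5 CPM in HGA (median 18.7) and from 1.72 to 25.8 CPM in primary AGASAC (median 13.1). ZEB2, its paralog, ranged from 10.5 to 58.7 CPM in HGA (median 30.5) and from 9.95 to 47.6 CPM in primary AGASAC (median 26.4). For both ZEB genes the groups overlapped, with 1 of 10 HGA above all primary tumors for ZEB1 and 4 of 10 for ZEB2. Metastases 1 to 4 held 9.41, 18.0, 12.2 and 10.2 CPM of ZEB1, and 12.3, 67.9, 13.8 and 46.0 CPM of ZEB2. For HGA versus AGASAC, ZEB1 log2FC was 0.66 (SE 0.32) and ZEB2 log2FC 0.30 (SE 0.28), neither called (edgeR quasi-likelihood, Benjamini-Yekutieli adjusted p = 0.962 and 1). For HGA versus metastasis, the log2FC of ZEB1 was 0.64 (SE 0.38) and that of ZEB2 0.05 (SE 0.45), again not called. ZEB1 changed sign within batch 6 (−0.12) and ZEB2 within batch 5 (−0.37) and under library-size scaling (−0.03).

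**Figure D2:**
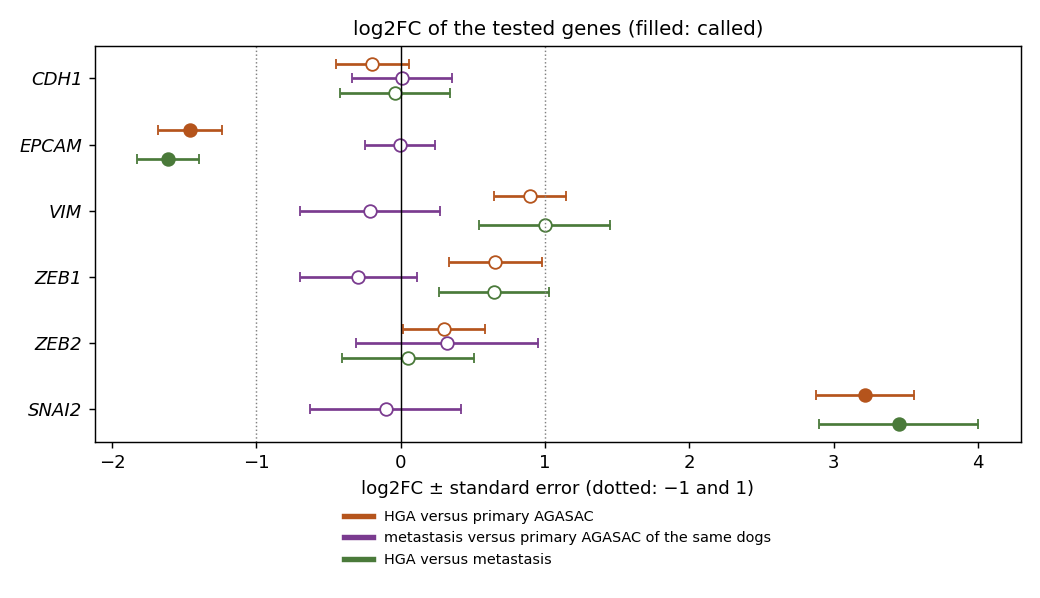
log2FC with standard error of the 6 tested members in the 3 comparisons. Filled points were called (edgeR quasi-likelihood test, Benjamini-Yekutieli adjustment). The signs of CDH1, ZEB1 and ZEB2 for HGA versus AGASAC changed with the batch used, that of ZEB2 also under library-size scaling.

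Between metastases and primary tumors of the same dogs, log2FC values were 0.01 for CDH1 (SE 0.35), −0.0045 for EPCAM (SE 0.24), −0.21 for VIM (SE 0.49), −0.29 for ZEB1 (SE 0.40), 0.32 for ZEB2 (SE 0.63) and −0.11 for SNAI2 (SE 0.52). These fits were unpaired. With the dog as a block, log2FC was −0.06 for CDH1 (SE 0.17), 0.0039 for EPCAM (SE 0.15) and −0.42 for VIM (SE 0.32). In that fit it was −0.22 for ZEB1 (SE 0.35), 0.18 for ZEB2 (SE 0.43) and −0.21 for SNAI2 (SE 0.47), and none was called. In the unpaired fits all 6 members changed sign when some single sample was left out. In primary tumors 1 to 4, EPCAM held 1367, 1369, 1652 and 1873 CPM, and SNAI2 held 3.92, 6.21, 7.71 and 10.6 CPM. EPCAM was higher in the metastasis of 2 of 4 dogs, CDH1 of 2, ZEB1 of 2, ZEB2 of 3, SNAI1 of 3, VIM of 1 and SNAI2 of 1. Metastasis 2 had the highest VIM, ZEB1, ZEB2, SNAI1 and SNAI2 of the 4 metastases, and also the highest fibroblast list sum. The genes called by DESeq2, named after their values were seen, were MYLPF, MYL1, ACTA1 and CKM (down in metastases) and SPOCK2 (up). ACTA1 and CKM belong to the skeletal muscle list, whose sum was 30.1, 601, 19.9 and 485 CPM in primary tumors 1 to 4 and 5.19, 5.57, 2.25 and 1.28 CPM in metastases 1 to 4, without overlap.

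**Figure D3:**
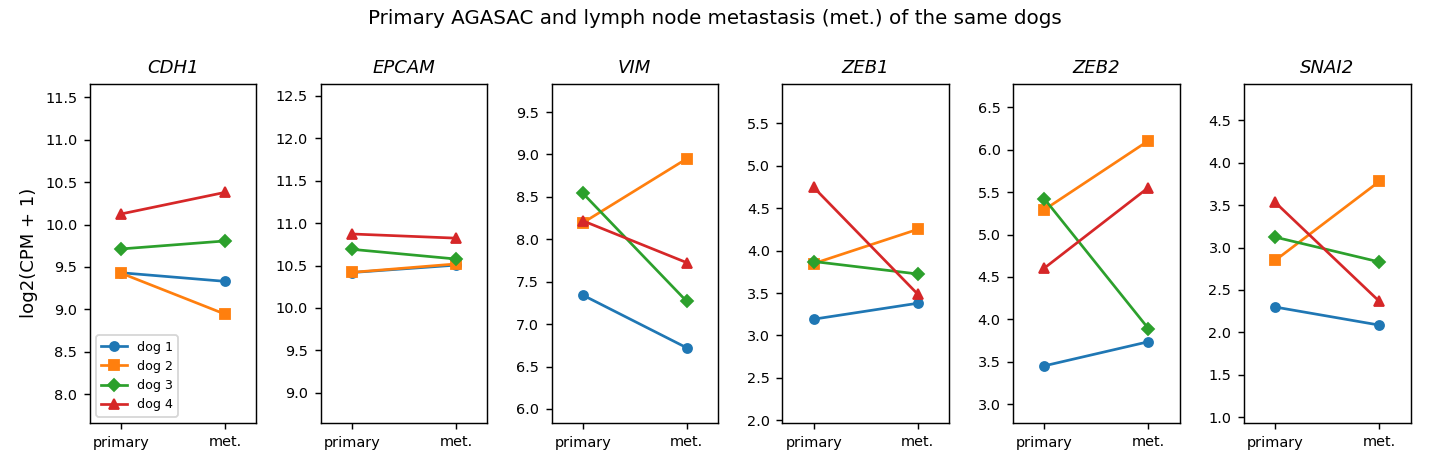
Level of the 6 tested members as log2(CPM + 1) in the primary AGASAC and the metastasis of dogs 1 to 4. None was called. In the unpaired fits, which ignore the dog, the sign of each log2FC changed when some single sample was left out.

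Bulk counts of VIM, the ZEB genes and SNAI2 sum tumor and stromal cells, and fewer cells of a type and less RNA per cell cannot be told apart. The fibroblast list (10 of 10 matched and detected, COL1A1 most abundant) summed to 1431 to 6359 CPM in HGA (median 2861) and 1084 to 8490 CPM in primary AGASAC (median 3878), and these ranges overlapped. In metastases 1 to 4 it summed to 783, 13514, 1449 and 3217 CPM. The leukocyte list (11 of 11) summed to 60.7 to 369.7 CPM in HGA (median 125; CSF1R most abundant) and 113 to 522 CPM in primary AGASAC (median 253; LAPTM5 most abundant). Among 20 relations of VIM, ZEB1, ZEB2, SNAI1 and SNAI2 with the fibroblast or leukocyte list within HGA or within primary AGASAC, 16 had r above 0, and 0 reached a Benjamini-Hochberg adjusted permutation p of 0.05. The lowest permutation p of r was that of VIM with the fibroblast list in HGA (r = 0.641, p = 0.0416, adjusted 0.299; rho = 0.539, p = 0.112, adjusted 0.320; r = 0.470 without the 2 farthest samples). Within naming series A, which leaves out HGA 10, this VIM relation had r = 0.865 (p = 0.00168, adjusted 0.0168; rho = 0.833, p = 0.00827, adjusted 0.0827; r = 0.870 without the 2 farthest samples). SNAI2 with the leukocyte list had r = 0.400 in all 10 HGA (p = 0.251, adjusted 0.456; rho = 0.467, p = 0.177, adjusted 0.329; r = −0.202 without the 2 farthest samples) and r = 0.866 in the 9 HGA of series A (p = 2.51e-04, adjusted 0.00502; rho = 0.867, p = 0.00451, adjusted 0.0827; r = 0.877 without the 2 farthest samples). For VIM and SNAI2 the values over all HGA and within series A differ by 1 sample, HGA 10, which had the highest VIM and SNAI2 of the HGA group. In primary AGASAC, r with the fibroblast list was 0.500 for VIM (p = 0.116; rho = 0.682) and 0.532 for SNAI2 (p = 0.0959; rho = 0.536) over 11 samples, adjusted 0.299 for both r, and −0.0749 and 0.582 in the 7 samples of naming series B. Single extraction batches hold at most 3 samples per group, too few for a relation.

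**Figure D4:**
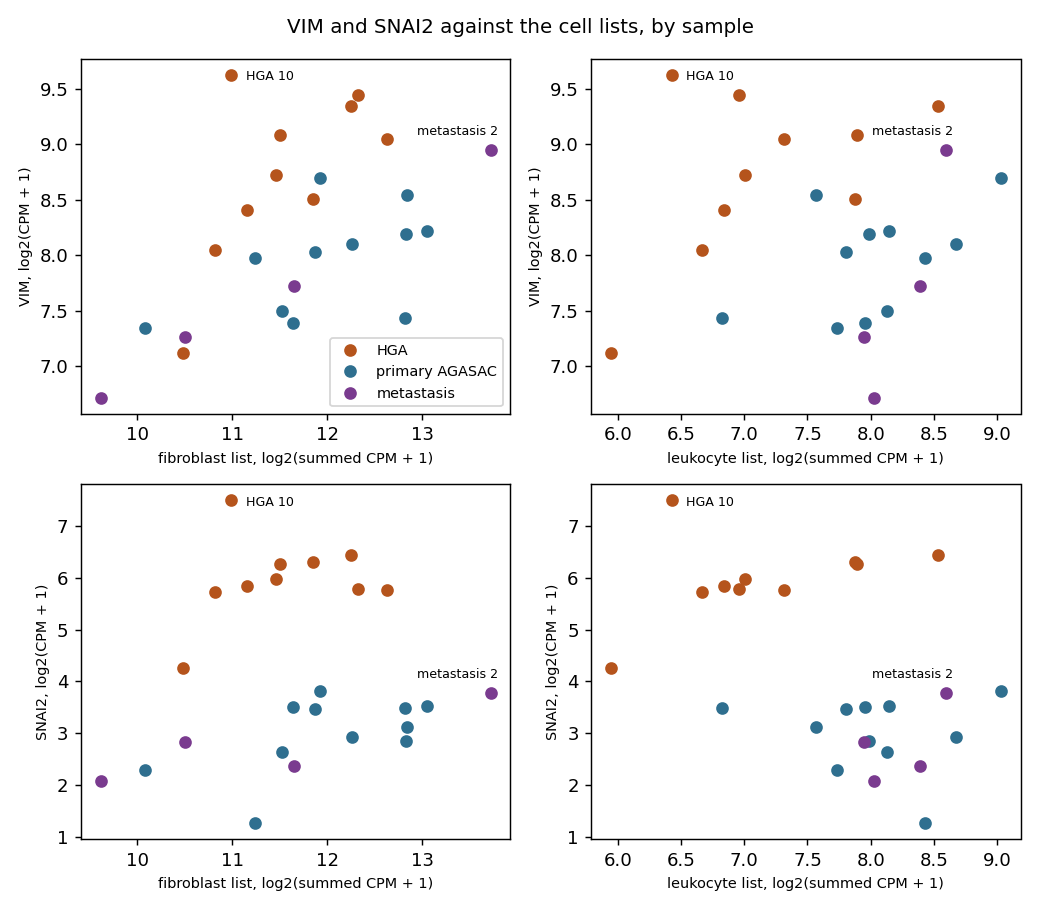
VIM and SNAI2 against the fibroblast and leukocyte lists in 25 samples, all as log2(CPM + 1). HGA 10 and metastasis 2 are named.

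Lists of epithelial cell markers were split between the tumor types, as EPCAM and SNAI2 were. The basal and squamous list (7 of 7 matched) summed to 3206 to 13009 CPM in HGA (median 4780.2; KRT14 most abundant, all 7 detected), against 0.670 to 67.3 CPM in primary AGASAC (median 23.1; ITGB4 most abundant, 6 detected) and 8.36 to 37.4 CPM in metastases (4 detected, KRT15 and DSG3 at 0), split as for SNAI2. The luminal gland list (6 of 7 matched) went with EPCAM: 78.3 to 1527 CPM in HGA (median 1100.1; CLDN4 most abundant, KRT8 not above 3 counts), 2556 to 5751 CPM in primary AGASAC (median 4112) and 2834 to 6130 CPM in metastases, with KRT19 most abundant in both AGASAC groups. Whether SNAI2 and EPCAM follow these epithelial cell types was not tested.

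Other cell lists, given beside VIM and the ZEB genes, had these median sums in HGA, primary AGASAC and metastases: endothelium 351, 203 and 194 CPM (10 of 10 detected), smooth muscle and myoepithelium 396, 251 and 176 CPM (7 of 7), skeletal muscle 4.42, 159 and 3.72 CPM (6, 8 and 2 of 8), and Schwann cell 10.7, 38.8 and 23.2 CPM (4, 2 and 2 of 6). The melanocyte list (3 of 6 matched) had medians of 10.0, 18.7 and 20.7 CPM, mostly MITF. The lymph node list (8 of 8 detected) had medians of 62.4, 27.7 and 36.7 CPM, so the median in metastases lay between those of primary AGASAC and HGA. The leukocyte list had a median of 297 CPM in metastases.

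Genes that act with the members were compared the same way, beside all-gene median log2FC values of −0.03 for HGA versus AGASAC and 0.02 for HGA versus metastasis, and beside 25.1% and 16.1% of all tested genes called. The partners of EPCAM and the membrane protease system (6 of 7 tested) had a median log2FC of −1.41 and 3 called, all down as EPCAM was. These were CLDN7 (log2FC −5.73, SE 0.49), PRSS8 (−3.01, SE 0.24) and SPINT2 (−1.54, SE 0.17; edgeR quasi-likelihood, Benjamini-Yekutieli adjusted p = 1.78e-08, 6.17e-09 and 1.40e-06). None of the 3 overlapped between the groups, beside 9.13% of all tested genes without overlap. CLDN7 had a median of 0.431 CPM in HGA, below the floor of 0.543 to 1.84 CPM, and at most 25 counts. Its log2FC against either AGASAC group therefore rests on HGA values near the floor. Without HGA 6, CLDN7 log2FC was −6.49. For HGA versus metastasis this EPCAM list had 4 of 7 down (median −1.81), with CLDN7 (−6.23), PRSS8 (−2.84) and ST14 (−1.96) the farthest. The ST14 call was lost without metastasis 4 (−1.66), and CLDN7 was −6.98 without HGA 6.

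Among partners of CDH1 at adherens junctions, 2 of 10 tested were called, beside 25.1% of all genes, both up in HGA: NECTIN1 (1.59, SE 0.31) and CTNNA1 (1.18, SE 0.20), with a list median of 0.34. For HGA versus metastasis NECTIN1 alone was called, 1 of 10 beside 16.1% of all genes (1.94, SE 0.29; list median 0.44). Of 20 other cadherins beside CDH1, CDH2 and CDH3, 5 were tested and 3 called, beside 25.1% of all genes (median 0.14). CDH5 (1.47) and CDH13 (1.34) were up. CDH20 was down, with at most 2 counts in any HGA and 0 to 154.8 CPM (median 43.0) in primary AGASAC. It passed the count filter through primary AGASAC alone. CDH20 passed that filter in 11 of the 21 fits that left out 1 sample, and was called in those. CDH5 is also in the endothelium list, whose median sum was 351 CPM in HGA and 203 CPM in primary AGASAC. The CDH5 call was lost without HGA 3 (1.39) or HGA 4 (1.28), and the CDH13 call in 15 of the 21 fits that left out 1 sample. Against metastases, 0 of 6 other cadherins were called by edgeR (median 0.89). CDH20 did not pass the count filter there and was not among the 6; its median was 0 CPM in HGA and 78.3 CPM in metastases, whose lowest was also 0.

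Beside the ZEB and SNAI genes, genes of epithelial identity and polarity were compared, and 5 of 14 tested were called, beside 25.1% of all genes (median −0.11): EHF (−5.69), ELF3 (−2.53) and OVOL2 (−1.35) down as EPCAM was, KLF4 (1.198) and RAB25 (1.17) up as SNAI2 was. EHF had a median of 1.80 CPM in HGA, near the floor, and of 43.4 CPM in primary AGASAC. The KLF4 and RAB25 calls were lost in 15 and 11 of the 21 fits that left out 1 sample. EHF was also down against metastases (−5.34; −4.44 without metastasis 4), 1 of 15 called there beside 16.1% of all genes (median −0.67). Of EMT transcription factors other than the ZEB and SNAI genes, 7 were tested (median 0.11), and SOX9 was up as SNAI2 was (3.48, SE 0.59; median 69.5 CPM in HGA and 4.73 in primary AGASAC). SOX9 was also up against metastases (4.61, SE 0.65; 1 of 7 called, list median −0.06). Beside VIM, 1 of 11 mesenchymal effector genes was called, beside 25.1% of all genes: FN1 (−2.73, SE 0.53; median 61.7 CPM in HGA and 462 in primary AGASAC), in the direction opposite to SNAI2, with a list median of −0.28; against metastases 0 of 12 were called by edgeR (median −0.15). In metastases versus primary AGASAC edgeR called 0 genes of any of these lists.

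**Figure D5:**
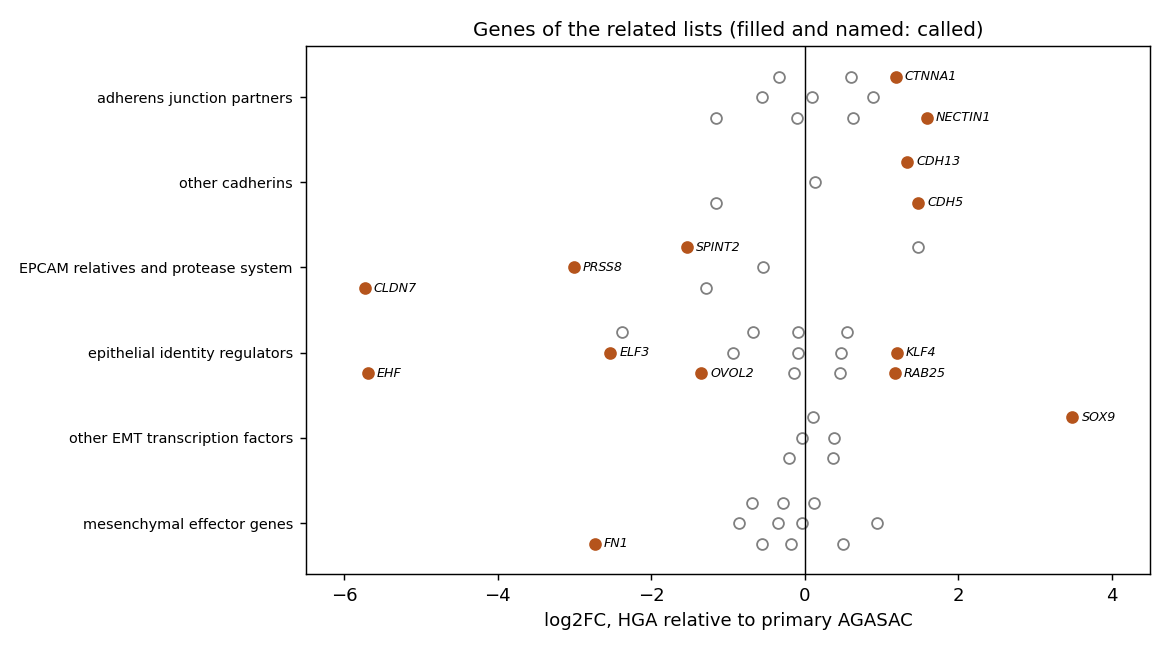
log2FC of tested genes of 6 related lists, HGA versus AGASAC. Filled points were called. Not every tested gene is drawn; CDH20 is left out, having at most 2 counts in any HGA.

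Scaling by library size alone shifted the median log2FC by −0.30 for HGA versus AGASAC and by −0.28 for HGA versus metastasis, and split the calls 1053 up to 2156 down in place of 1523 to 1509, and 788 to 1383 in place of 1109 to 1015. SNAI2 and EPCAM kept their directions and calls under it. Tumor type and naming series overlap in part (9 of 10 HGA in series A, 7 of 11 primary AGASAC in series B), and protein levels of the members were not measured.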

How the data were processed

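QuantSeq 3′ libraries of 25 FFPE canine tumor samples were compared as raw counts per gene. The authors trimmed reads with Cutadapt, aligned them to CanFam3.1 with STAR and deposited counts from repeated rounds of featureCounts, the later one on genes extended at the 3′ end, with multi-mapped reads split evenly; versions were not stated. Deposited normalized counts (25 columns) and the authors' comparison columns (mean, log2 fold change, standard error, p and adjusted p) were not used. UU_Cfam_GSD_1.0 served for gene names only, with no coordinates.

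Genes passing filterByExpr (minimum count 10, minimum total 15, by group) were tested with edgeR 4.0.16 (R 4.3.3) by quasi-likelihood F test after TMM scaling. Called genes had a log2FC of 1 or more in size and passed 0.05 after Benjamini-Yekutieli adjustment. The standard error is the log2FC divided by the square root of F. CPM used TMM factors over 25 samples, and list levels are log2 of summed CPM plus 1. Relations used Pearson r and Spearman rho with 100000 permutations (exact within naming series) and Benjamini-Hochberg adjustment (Python 3.11.15, pandas 2.3.3, numpy 2.4.6, SciPy 1.17.1). The procedure was tested on simulated data. Medians, ranges and sums of the cell lists carry no test.

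Members and lists were chosen from general knowledge of adhesion, EMT and cell markers, with earlier results of these data known. From each related list, called genes were named, though not all of them, and at most the 3 with the largest log2FC in each direction. The lists were adherens junction partners, other cadherins, EPCAM relatives and protease system, epithelial identity regulators, other EMT transcription factors and mesenchymal effector genes; and, for cells, fibroblast, endothelium, leukocyte, lymph node, smooth muscle and myoepithelium, skeletal muscle, Schwann cell, melanocyte, basal and squamous epithelium, and luminal gland epithelium.

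Alternatives were the DESeq2 1.42.0 Wald test, Benjamini-Hochberg adjustment, RLE or library-size scaling, no count filter or at least 10 counts in every sample, a replicate block, 1 fit of all 25 samples, leaving out each sample, extraction batch as a term, single batches or naming series, and all 15 AGASAC samples. Applying them to related lists and to all genes was chosen after seeing the data. By the labels, metastases 1 to 4 and primary tumors 1 to 4 came from the same dogs; over 12173 genes their deviations from the group means correlated at r = 0.735, 0.537, 0.588 and 0.45. No samples were duplicates: the smallest chi-square per degree of freedom between samples was 12.2 in HGA, 24.7 in primary AGASAC and 32.6 in metastases.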

Additional observations from a re-analysis of the deposited data

Results flagged for a closer look

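Among 38 groups of values (samples of 1 gene or list in the HGA or metastasis group), 3 held a sample far from the others, measured by its gap to the nearest sample over the whole range. Chance gives about 1 in 20 such groups if the values are normally distributed. The CPM were not log-transformed here, and CDH2 was at 0 in 8 of 10 HGA, so that rate need not hold. SNAI2 in HGA 10 was 178.9 CPM (416 counts), against 18.2 to 86.3 CPM in the other 9 HGA. ZEB1 in HGA 7 was 42.5 CPM (140 counts), against 9.03 to 23.2 CPM in the others. CDH2 in HGA 3 was 1.71 CPM, which is 3 counts and no more than a count of 0 allows, against 0 to 0.204 CPM in the others. HGA 10 was extracted apart from the other HGA and belongs to the other naming series; causes of these values were not tested.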

How the results depend on the processing

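SNAI2 and EPCAM kept their directions in every alternative that tested them, for HGA versus AGASAC and for HGA versus metastasis. For HGA versus AGASAC, 191 of 202 member results kept sign and call, 5 lost the call, 1 gained it (VIM without HGA 9) and 5 changed sign; for HGA versus metastasis it was 125 of 144, with 5 lost and 14 changed in sign. For metastasis versus primary AGASAC, 69 of 90 kept the sign and 21 changed it. Of related genes named, 110 of 520 and 15 of 140 results lost the call, and 0 changed sign; the cause of these changes was not tested.

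Members called for HGA versus AGASAC fell from 2 to 1 with at least 10 counts in every sample, a filter that leaves SNAI2 untested. They were 0 in batch 5, 1 in batch 6 and 0 in batch 8, and for HGA versus metastasis 0 in batches 5 and 8, with fewer samples in each fit. In these batches all called genes numbered 262, 637 and 338, and 0 and 0 for metastasis. With at least 10 counts in every sample they numbered 1452 and, for metastasis, 1153.

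Signs that changed for HGA versus AGASAC were CDH1 in batch 6 (0.16) and series A (0.27), ZEB1 in batch 6 (−0.12), and ZEB2 in batch 5 (−0.37) and by library size (−0.026). For HGA versus metastasis they were CDH1 in batch 8 (0.54), and ZEB2 by library size (−0.28), with at least 10 counts (−0.037) and in batch 8 (−0.0125). Leaving out 1 sample gave −0.23 to 0.28 for CDH1 and −0.24 to 0.59 for ZEB2.

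For metastasis versus primary AGASAC, leaving out 1 sample gave CDH1 −0.31 to 0.20, EPCAM −0.0889 to 0.11, VIM −0.85 to 0.0427, ZEB1 −0.54 to 0.10, ZEB2 −0.24 to 0.61 and SNAI2 −0.67 to 0.16. In 1 fit of 25 samples CDH1 was −0.17, EPCAM 0.15 and ZEB1 0.0035, and by library size CDH1 was −0.0074. DESeq2 called 5 genes in place of 0.

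The block of the dog for metastasis versus primary AGASAC gave CDH1 −0.0603, EPCAM 0.0039 and 1 called gene, ACTA1. For HGA versus metastasis only a replicate number is shared, and deviations of paired numbers correlated at −0.0846 to 0.0488 (−0.043 to 0.0332 for HGA versus AGASAC). There the block gave 1 called member in place of 2 (EPCAM −1.62, adjusted p 0.0725, not called; SNAI2 3.50 called), 762 called genes and CDH1 0.17.

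Within the larger naming series 2 relations passed in place of 0, and r changed sign in primary AGASAC for VIM (−0.0749), ZEB1 (−0.0984) and ZEB2 (−0.0333) with the fibroblast list and SNAI1 with the leukocyte list (−0.0593). The cause was not tested. At this depth CDH2, CDH3 and SNAI1 passed the count filter in none of the 3 comparisons; DESeq2 and edgeR without the filter tested them and called none. With 4 metastases a log2FC had a standard error of 0.24 to 0.63 against the same dogs' primary tumors, unpaired.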
